A study of Homo sapiens with 4 samples.

Results

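The expression of 10 genes of inflammatory signalling was followed on arrays of a breast cancer cell line with and without a hairpin against the RNA-binding protein YTHDF3: the neutrophil-attracting CXC chemokines CXCL1, CXCL2, CXCL3 and CXCL8, the CC chemokines CCL2 and CCL20, the cytokine IL11, and the NF-kB target genes TNFAIP3, ICAM1 and BIRC3. The 10 genes were chosen by symbol, with the differences between these same arrays already known. Their own differences are therefore a description, given with standard errors (SE) and 95% intervals and without p-values. A probe set is a group of probes summarized as 1 value. A gene was measured where it had a named probe set, one to which the platform annotation gave that gene's symbol alone. Probe sets annotated to several symbols were not counted. Of the 10 listed genes 7 had 1 probe set each, out of 14884 named genes on the array. CXCL1, TNFAIP3 and BIRC3 had no named probe set and were not analysed here. CCL2 lay below the level needed for testing, so 6 members were tested among 12755 genes.

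The cells were labelled MDA-MB-231Br, a subline of the triple-negative breast cancer cells MDA-MB-231, while the titles say MDA-MB-231. Every culture received lentivirus and puromycin selection. The virus carried a control hairpin (shControl) on 2 arrays and a hairpin against YTHDF3 (shYTHDF3), a cytoplasmic reader of N6-methyladenosine, on the other 2. How many hairpins were used, and whether the arrays of a group came from separate cultures, is not said in the labels, so the spread between the arrays of a group may be technical. This is 1 cell line, so the values speak for it alone.

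NF-kB is a family of dimeric transcription factors held in the cytoplasm by IkB proteins until the IKK kinase complex, driven by cytokine or Toll-like receptors, releases them. In the nucleus they switch on chemokines and adhesion molecules, and also their own inhibitors, such as the ubiquitin-editing enzyme A20 (TNFAIP3). CXC chemokines with a glutamate-leucine-arginine (ELR) motif attract neutrophils through the receptors CXCR1 and CXCR2, whereas CCL2 draws monocytes and CCL20 draws cells carrying CCR6. Many chemokine mRNAs carry AU-rich elements and are short-lived.

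The targeted gene, YTHDF3, had no named probe set and was not analysed here, so the knockdown labels have no check. Arrays of 1 group correlated at 0.992 over the tested genes, and arrays of different groups at 0.986 to 0.987. Of the mesenchymal markers listed for the line, 5 of 7 were tested. The mean log2 level of those 5 was 9.33 and 9.37 on the control arrays and 9.07 and 8.98 on the knockdown arrays. Among them 1, the fibronectin gene FN1, was called lower in the knockdown (-1.50). The others differed less, from -0.18 for AXL to 0.17 for CD44. Of the luminal breast markers 7 of 9 were tested and none was called (1 at an unadjusted p under 0.05). Their mean level was 4.96 and 4.89 on the control arrays and 4.98 and 5.09 on the knockdown arrays. The hormone receptor genes ESR1 and PGR were at 2.91 or below as group means, near the testing level of 2.54. The other 5 stood above it, with control means of 4.31 for KRT8, 4.60 for GATA3, 4.90 for FOXA1, 6.70 for EPCAM and 8.45 for KRT18. The last had the low p-value and a log2 difference of 0.50 (limma adjusted p = 0.22), and its part in the results below was not tested. Of the leukocyte markers 6 of 13 were tested and none was called by limma at an adjusted p under 0.05 (0 at an unadjusted p under 0.05). Their mean level was 4.55 on both control arrays and 4.52 on both knockdown arrays, but the single genes were far apart. CD68 had a control mean of 10.66 and CD8A one of 4.58. The control means of CD14, CSF3R, CSF1R and TYROBP were 3.38 or less, near the testing level. PTPRC, the defining leukocyte marker, had no named probe set.

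Promoters are shown for CXCL2, CXCL3, CCL20 and ICAM1, the members whose arrays did not overlap between the groups and that hold a motif marked below. That of CXCL8 is shown for comparison. The choice thus rested on the values of these same arrays, so nothing is read from the motifs these genes share. The sequences were taken from a table of RefSeq promoter windows (GRCh38.p14) in which 9 of the 10 members were matched. A window for CCL2 was not used here. Each line gives the 200 bases before the gene's start, 5′ to 3′ on the gene's strand. Capitals mark matches, on either strand, to the kappaB consensus (the DNA motif read by NF-kB), to GGAATTTCC, a kappaB-like sequence that overlaps the consensus match in CXCL1, CXCL2 and CXCL3, or to TGANTCA, the motif of AP-1. The stretches are chr4:74099196-74099395 (minus strand), chr4:74038690-74038889 (minus strand), chr4:73740369-73740568 (plus strand), chr2:227813642-227813841 (plus strand) and chr19:10270920-10271119 (plus strand). CXCL8, whose arrays overlap, was also added after its values were seen, as the other measured gene of the family.
CXCL2: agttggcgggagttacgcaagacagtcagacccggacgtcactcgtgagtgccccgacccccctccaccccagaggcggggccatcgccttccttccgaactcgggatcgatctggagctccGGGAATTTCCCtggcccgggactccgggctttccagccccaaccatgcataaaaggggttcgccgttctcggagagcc
CXCL3: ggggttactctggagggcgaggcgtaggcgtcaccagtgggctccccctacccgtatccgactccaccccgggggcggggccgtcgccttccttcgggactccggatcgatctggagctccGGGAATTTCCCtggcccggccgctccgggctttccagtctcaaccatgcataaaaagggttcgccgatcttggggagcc
CXCL8: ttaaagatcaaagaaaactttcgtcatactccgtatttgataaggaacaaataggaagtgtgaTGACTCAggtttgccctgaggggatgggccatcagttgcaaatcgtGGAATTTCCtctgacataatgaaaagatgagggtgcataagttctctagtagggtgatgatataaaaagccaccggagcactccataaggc
CCL20: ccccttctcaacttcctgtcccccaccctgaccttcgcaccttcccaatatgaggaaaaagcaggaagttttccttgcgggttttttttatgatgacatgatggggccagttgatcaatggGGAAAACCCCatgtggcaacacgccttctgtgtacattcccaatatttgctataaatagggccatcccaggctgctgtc
ICAM1: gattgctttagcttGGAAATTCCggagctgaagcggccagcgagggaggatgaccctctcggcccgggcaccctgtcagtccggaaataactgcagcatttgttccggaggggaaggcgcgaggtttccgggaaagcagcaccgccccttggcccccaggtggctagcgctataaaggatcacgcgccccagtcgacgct

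CXCL2 and CXCL3 share the stretch GGGAATTTCC, which starts 78 bases before the start of CXCL2 and 79 before that of CXCL3. CXCL1 holds the same letters starting 79 bases before its start. CXCL8 holds GGAATTTCC 91 bases before its start, and ICAM1 holds it on the other strand, 186 to 178 bases before its start; neither has a match to the consensus. CCL20 has a kappaB match on the other strand, GGGGTTTTCC. The feedback and survival genes TNFAIP3 and BIRC3 have 2 consensus matches each, also on the other strand. Those of TNFAIP3 are GGGACTTTCC, 67 to 58 bases before its start, and GGGGATTTCC, 55 to 46 before. Those of BIRC3 are GGGGATTTCC, 199 to 190 bases before its start, and GGGGAACTCC, 135 to 126 before. IL11 has no match to either NF-kB motif. AP-1 matches were found for CXCL8 and IL11. Over the 250 bases before the start, CXCL2 and CXCL3 were 73.3% identical in a global alignment, and the 3 pairs among CXCL1, CXCL2 and CXCL3 ran from 71.4% to 81.4%. The other 33 pairs of members lay between 41.6% and 53.8%, among them CXCL8 with CXCL1, CXCL2 and CXCL3 at 46.2%, 44.7% and 47.1%. GGAATTTCC was found in 0.413% of 35116 RefSeq windows of 250 bases, the kappaB consensus in 9.96% and TGANTCA in 6.57%. A match is a run of letters and no evidence of binding.

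CXCL2 and CXCL3 were the members with the largest differences, and both were lower with the YTHDF3 hairpin. CXCL2, a neutrophil attractant also called MIP-2 alpha, read 7.80 and 7.76 on the control arrays and 6.76 and 6.91 on the knockdown arrays, as deposited log2 expression. Its group means were 7.78 ± 0.03 and 6.83 ± 0.10 (SD, n = 2). Both knockdown arrays lay below both control arrays, by at least 0.85. The log2 difference was -0.94 (SE 0.13, 95% interval -1.25 to -0.64), which leaves 52.0% of the control signal.

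CXCL3, a close relative that acts on the same receptor, read 8.01 and 7.88 on the control arrays against 7.02 and 6.60 on the knockdown arrays. The means were 7.94 ± 0.09 and 6.81 ± 0.30 (SD, n = 2), again without overlap. The log2 difference was -1.13 (SE 0.17, 95% interval -1.53 to -0.73), a 2.19-fold lower signal. The knockdown arrays were 0.42 apart for CXCL3 and 0.14 apart for CXCL2, in opposite directions. In RNA from a whole culture, fewer cells making a transcript and less of it per cell cannot be told apart. CXCL1, CXCL2 and CXCL3 are also close copies in their coding sequence, so a probe set named for 1 of them may read another, which was not tested.

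CXCL8, or interleukin 8, which signals through CXCR1 and CXCR2, differed less. It read 10.39 and 10.16 on the control arrays and 10.17 and 9.89 on the knockdown arrays. The groups overlapped, since the higher knockdown array lay 0.01 above the lower control array. The log2 difference was -0.24 (SE 0.16, 95% interval -0.61 to 0.13). The arrays of a group were 0.23 and 0.28 apart, about as far as the group means, and with 1 array left out the difference ran from -0.38 to -0.10.

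**Figure D1:**
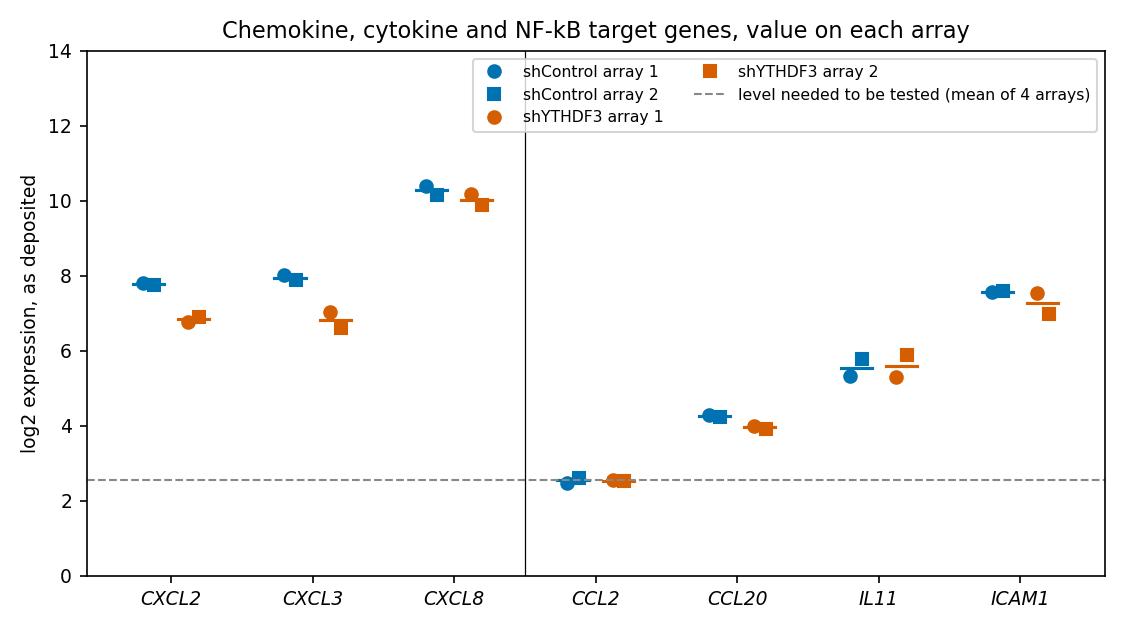
Deposited log2 expression (vertical axis) of the 7 measured genes on each of the 4 arrays; blue marks shControl, orange shYTHDF3, circles array 1, squares array 2, short bars the group means (n = 2), and the dashed line the testing level of 2.54. For CXCL2 and CXCL3 the groups are at least 0.85 apart, while for CXCL8, CCL2 and IL11 they overlap; heights of different genes come from different probes and cannot be ranked.

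Of the CC chemokines CCL20 was tested and CCL2 was not. CCL20, the ligand of CCR6, read 4.28 and 4.22 on the control arrays and 3.99 and 3.92 on the knockdown arrays, a small difference without overlap. It came to -0.29 (SE 0.13, 95% interval -0.59 to 0.0029). CCL2, the monocyte attractant, read 2.46 and 2.62 on the control arrays and 2.55 and 2.51 on the knockdown arrays. Its mean of 2.536 lay just under the testing level of 2.539, at the 29.8 percentile of all probe sets, so nothing can be said of a change in it. RMA, the summary method named for these values, compresses such weak signals, so differences of dim genes can be understated.

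IL11, a cytokine of the IL-6 family that has been linked to breast cancer metastasis, differed less between the groups than within them. It read 5.33 and 5.77 on the control arrays and 5.30 and 5.89 on the knockdown arrays. The second array was the higher 1 in both groups, by 0.44 and 0.59, while the group means differed by 0.05 (SE 0.23, 95% interval -0.49 to 0.59).

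ICAM1, the adhesion molecule that leukocyte integrins bind, was the 1 measured member that is neither a chemokine nor a cytokine. It read 7.56 and 7.60 on the control arrays, and 7.55 and 6.98 on the knockdown arrays. The groups did not overlap, but by a margin of 0.01, and the difference rests on the second knockdown array. The log2 difference was -0.31 (SE 0.19, 95% interval -0.77 to 0.14), and it was -0.03 without shYTHDF3 replicate 2.

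Side by side, the 3 tested CXC chemokines had a median log2 difference of -0.94 and the 3 tested CC chemokine, cytokine and adhesion genes one of -0.29, against 0.0040 over all tested genes. The medians differed by 0.65, which is a description of 3 genes against 3 and not a test. The first median is the value of CXCL2. The third CXC gene, CXCL8, differed less (-0.24) than CCL20 (-0.29) and ICAM1 (-0.31), so the gap between the medians comes from CXCL2 and CXCL3. Over the same CCL20, IL11 and ICAM1 the second median ran from -0.33 to -0.25 with 1 array left out. CCL2 joins these genes with no filter, without shControl replicate 1 and without shYTHDF3 replicate 2, and the median over the 4 genes was then -0.15, -0.22 and -0.14. The limma fit across all genes called 2 of the 6 members lower and 0 higher at an adjusted p under 0.05, CXCL2 and CXCL3, where 0.753% of tested genes were called at all, 0.666% lower and 0.0862% higher. The members were picked with these calls known, so nothing is read from that count. For 4 of the 6 both knockdown arrays lay below both control arrays, against 22.8% of all tested genes (and 22.6% with both above). For comparison, 0.729% of tested genes had a difference as low as that of CXCL2 or lower, and 0.463% as low as that of CXCL3, against 16.2% for CXCL8, 12.2% for CCL20 and 10.9% for ICAM1.

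The calls of CXCL2 and CXCL3 were lost whenever any 1 of the 4 arrays was left out, while the differences stayed between -1.01 and -0.87 for CXCL2 and between -1.34 and -0.92 for CXCL3. With the replicate number as a block neither was called, and with no filter on dim genes CXCL2 alone was.

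**Figure D2:**
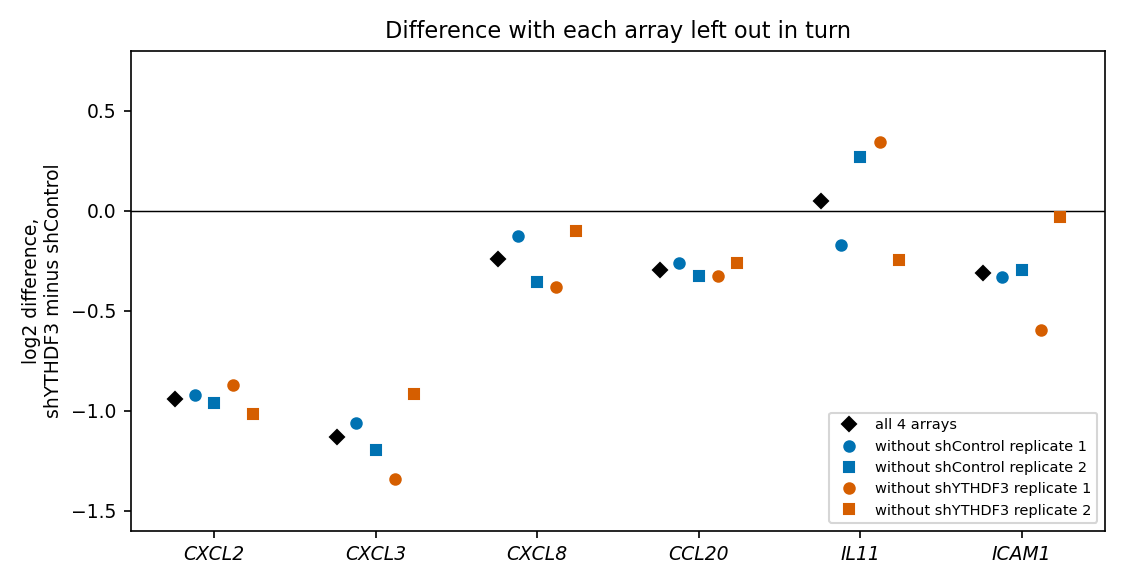
Log2 difference between knockdown and control (vertical axis) for the 6 tested members, with all 4 arrays (black diamonds) and with each array left out in turn (blue, a control array left out; orange, a knockdown array). CXCL2 and CXCL3 stay at -0.87 or below throughout, IL11 crosses 0, and ICAM1 comes to -0.03 without shYTHDF3 replicate 2.

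CXCL2 and CXCL3 are neighbours in the CXC chemokine cluster of chromosome 4, so the other genes there were read too, a choice made after the values of the members were seen. Of the 9 protein-coding genes from CXCL8 to CXCL2 in RefSeq order 5 were tested. Besides the 3 members these were PF4, platelet factor 4, at 0.04 (95% interval -0.32 to 0.39), and CXCL5, another ELR chemokine, at 0.09 (95% interval -0.26 to 0.43). CXCL5 lies next to CXCL3 and read 3.09 and 2.95 on the control arrays against 3.24 and 2.98 on the knockdown arrays, a low signal that overlapped. CXCL6, PF4V1 and PPBP fell below the testing level. Of the 5 genes on each side of the cluster 5 in all were tested and none was called by limma, against 0.753% of all tested genes. An unadjusted p under 0.05 was reached by 1, against 8.48% lower and 6.24% higher over all tested genes. That gene was EREG, the EGF receptor ligand epiregulin, which read 10.15 and 10.02 on the control arrays and 9.38 and 9.68 on the knockdown arrays (log2 difference -0.56, 95% interval -0.91 to -0.20, limma adjusted p = 0.16).

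**Figure D3:**
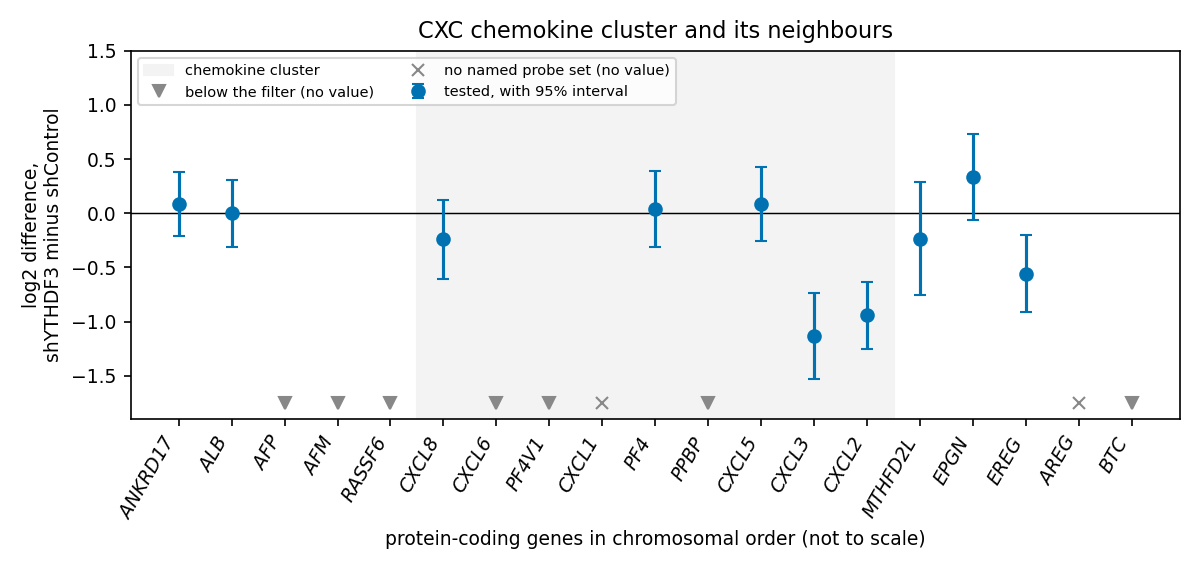
Log2 difference between knockdown and control (vertical axis) with its 95% interval for protein-coding genes in their order along chromosome 4, spacing not to scale; the shaded stretch runs from CXCL8 to CXCL2, and grey marks at the bottom are genes without a tested value. CXCL3 at -1.13 and CXCL2 at -0.94 lie furthest below 0, while the intervals of CXCL8, PF4 and CXCL5 include 0. Outside the shaded stretch EREG lies at -0.56, with an interval of -0.91 to -0.20.

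The rest of the pathway was read from 11 lists covering chemokines, their receptors, cytokines, IKK signalling, NF-kB subunits, feedback inhibitors, targets and mRNA-binding proteins. They held 167 genes beside the members, of which 119 had a named probe set and 100 were tested. Limma called 0 of the 100 at an adjusted p under 0.05, against 0.753% of all tested genes. At that share few or no calls would be looked for in lists of this size, so their absence says little. There were 8 lower and 3 higher with an unadjusted p under 0.05, against 8.48% lower and 6.24% higher over all tested genes. The arrays did not overlap for 21 lower and 18 higher genes of the 100, against 22.8% and 22.6% of all tested genes, and the median difference was -0.01.

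Other chemokines gave no call. Of the 6 tested CXC and CX3C chemokines outside the ELR group the smallest p-values were those of CXCL11 (0.20), CXCL14 (-0.12) and CXCL12 (-0.06), given here as log2 differences. Of 17 tested CC and XC chemokines beside CCL20 they were those of CCL18 (0.37), CCL23 (-0.33) and CCL24 (-0.22). All 6 genes had control means of 3.30 or less, near the testing level.

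The receptors for the neutrophil-attracting chemokines were near the floor as well. CXCR2 had a control mean of 2.71 and a difference of 0.23, and CXCR1 was below the testing level. Among 13 tested chemokine receptors CCR10, the receptor of CCL27 and CCL28, differed most, from 3.38 and 3.15 to 2.69 and 2.68 (log2 difference -0.58, limma adjusted p = 0.13). XCR1 had 0.20. CXCR4, the receptor of CXCL12, read 5.97 and 6.15 on the control arrays and 5.52 and 6.14 on the knockdown arrays, which overlap; it is named after its values were seen.

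Inflammatory cytokines had the lowest median of the 11 lists, -0.26 over 8 tested genes beside IL11, 5 of them negative. None was called by limma, while an unadjusted p under 0.05 was reached by 4 of the 8, all of them lower, against 8.48% lower and 6.24% higher over all tested genes. The list was singled out after its median was seen, so nothing is read from that count. CTF1, cardiotrophin 1, a relative of IL11 that also signals through gp130, read 5.58 and 6.10 on the control arrays and 4.62 and 5.03 on the knockdown arrays. Its log2 difference was -1.01 (SE 0.21, limma adjusted p = 0.098, in a range of 0.035 to 0.40 over the alternatives). IL24 had -0.52, IL32 had -0.36 and LIF, leukaemia inhibitory factor, had -0.42 without being called. LIF is named after its values were seen. CSF3, the neutrophil growth factor G-CSF, and CSF1 had 0.26 and 0.27, also without a call and named after their values were seen. IL6, IL1A, IL1B and CSF2 had no named probe set and were not analysed here.

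The NF-kB subunits and the steps above them showed no call. NFKB1, the p105 precursor of p50, read 8.04 and 8.02 on the control arrays and 8.27 and 8.44 on the knockdown arrays (0.32, limma adjusted p = 0.32). RELA, the transactivating subunit p65, read 8.34 and 8.45 against 8.09 and 8.16 (-0.27, limma adjusted p = 0.38). REL, NFKB2 and RELB had -0.06, 0.03 and -0.0046. Of 16 tested IKK and adaptor genes the smallest p-values belonged to TAB3 (-0.37), RBCK1 (-0.26) and MAP3K7 (-0.26), all of which act in the activation of the TAK1 and IKK kinases. A further probe set of TAB3 gave -0.04. Of the 6 tested receptors upstream of NF-kB or related to IL11, IL6R had 0.50, TLR4 0.33 and TLR2 -0.24.

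The feedback inhibitors and survival targets were likewise without a call, and TNFAIP3 and NFKBIA, the best-known of the inhibitors, were not analysed here. Of 13 tested genes listed as inhibitors PELI1, a ubiquitin ligase of Toll-like receptor signalling, read 7.80 and 7.51 on the control arrays and 6.90 and 7.10 on the knockdown arrays (-0.65, limma adjusted p = 0.13, in a range of 0.034 to 0.43 over the alternatives). Whether PELI1 acts as an inhibitor in these cells was not tested. TNIP1 and TNIP3, partners of A20, went the other way with 0.37 and 0.54. The groups overlapped for TNIP3, which read 5.15 and 4.46 on the control arrays and 5.55 and 5.14 on the knockdown arrays. Of 11 tested adhesion and survival targets beside ICAM1, XIAP, a caspase inhibitor of the same family as BIRC3, had -0.37, RIPK2 -0.32 and NINJ1 0.16. Among 4 tested AU-rich element binding proteins KHSRP, which promotes decay of such mRNAs, had 0.29, TIAL1 0.25 and AUH -0.21. A further probe set of TIAL1 gave 0.97, so the probe sets of that gene share a direction but differ in size.

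**Figure D4:**
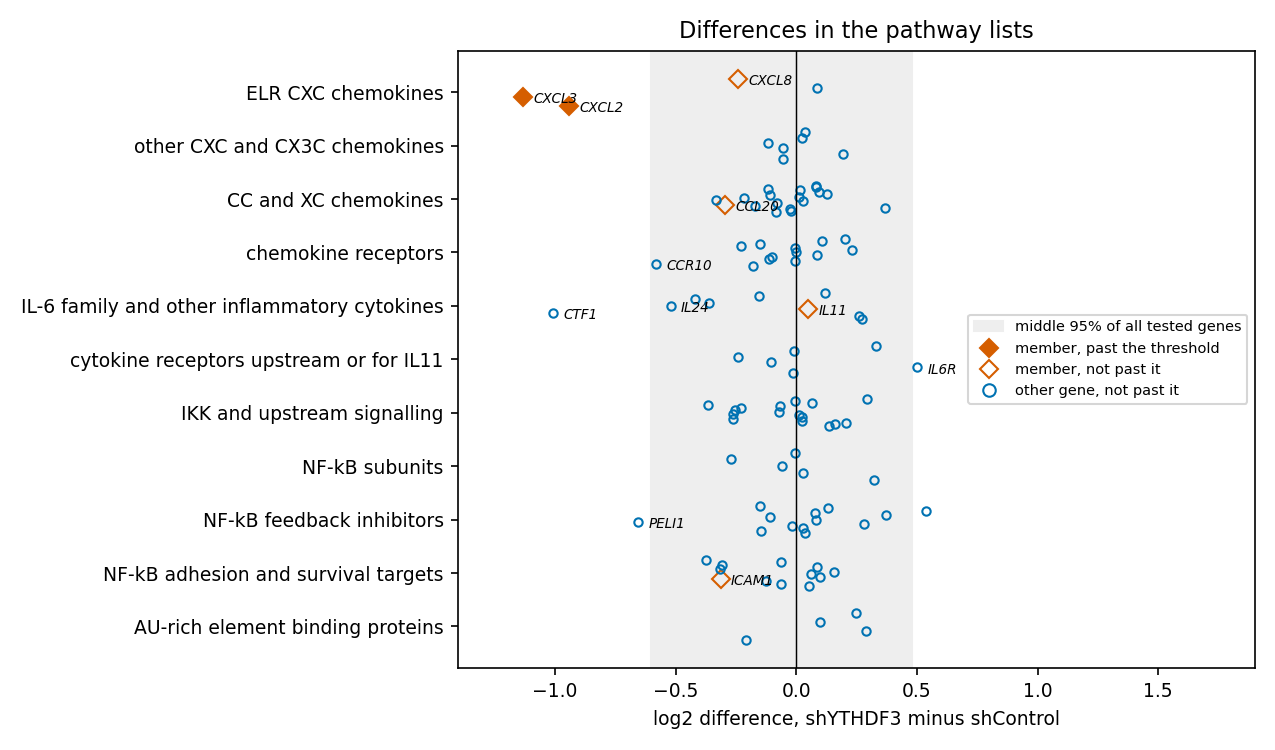
Log2 difference between knockdown and control (horizontal axis) for each tested gene of the 11 lists (rows); orange diamonds are members, filled where called in the fit across all genes, and blue circles are the other genes, labelled where the unadjusted p was under 0.01. The grey band holds the middle 95% of all tested genes, from -0.60 to 0.48; CXCL2, CXCL3, CTF1 and PELI1 lie below it, IL6R and TNIP3 above it, and only CXCL2 and CXCL3 are filled.

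Genes that share the promoter motifs were read as a further set, without the members. Of 9599 tested genes with a RefSeq window 62 (0.646%) were called lower, and 14.5% had an unadjusted p under 0.05. Of the 40 whose window holds GGAATTTCC limma called 0, with 3 (7.5%) at an unadjusted p under 0.05 and a median difference of -0.05. Few or no calls would be looked for in a set of 40, so these low counts say little. Of the 1452 with a kappaB consensus match 8 (0.551%) were called lower, and the median was 0.01. Of the 643 with TGANTCA 6 (0.933%) were called lower and 1 higher, with a median of -0.01. These counts are descriptions, and no test was made of them.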

How the data were processed

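Gene expression was measured on Affymetrix arrays in 2 shControl and 2 shYTHDF3 samples, grouped by their titles. The authors deposited log2 expression values per probe set, 1 column per array. Per the submitters' processing notes RMA was used; no version, setting or annotation is named. This method normalizes between arrays, which removes array-wide shifts, and compresses weak signals. Array medians ran from 3.20 to 3.22. Precision is limited by the number of arrays.

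Of 53617 probe sets 16098 had 1 gene symbol. The probe set of highest mean stood for a gene, which was tested if this mean was at least 2.54, which 30 percent of all probe sets do not reach. The knockdown was set against the control in limma 3.58.1 (R 4.3.3), with lmFit, eBayes and 2-sided p-values. These were adjusted by Benjamini-Hochberg across every tested gene; "called" means an adjusted p under 0.05. The fit was tested on simulated data. With 2 arrays a group the smallest 2-sided permutation p is 0.333. Promoter windows were aligned with Biopython 1.88.

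The members and lists were chosen with earlier results of these data known. Named genes were the members, the NF-kB subunits and, in each list, genes past the threshold or else up to 3 of smallest p; others are marked. Same-numbered arrays deviated together at a correlation of only 0.04 and the labels tie no number to a batch, so the fit was not blocked. Alternatives covered the filter, probe set rule, normalization, variance model, replicate block, threshold and leaving out each array.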

Additional observations from a re-analysis of the deposited data

How the results depend on the processing

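The count of genes called by limma was 96, and it was 167 with a filter at the median level, 375 with a variance model that follows intensity, 250 at a threshold of 0.1, 11 with the replicate block, and between 0 and 36 with 1 array left out. Of the members CXCL2 and CXCL3 were called, but the count was 1 with no filter (CXCL2), 0 with the replicate block and between 0 and 0 with 1 array left out. Fewer samples or degrees of freedom entered those last fits; with 1 array left out the lone array of a group is assumed to vary like the other group. The other 3 normalizations, the probe set mean, the robust prior, the trend and the median filter kept both calls. Outside the members the pathway lists had 0 calls, but 2 with the variance model that follows intensity (CTF1 and PELI1) and 1 at a threshold of 0.1 (CTF1); applying the alternatives to these lists was chosen after seeing the data. IL11, at 0.05, had the opposite sign without shControl replicate 1 (-0.17) and without shYTHDF3 replicate 2 (-0.25), with values from -0.25 to 0.34 when 1 array was left out. The median of the CXC chemokines stayed between -0.96 and -0.87. That of the CC chemokine, cytokine and adhesion genes was -0.29. CCL2 entered it with no filter (-0.15), without shControl replicate 1 (-0.22) and without shYTHDF3 replicate 2 (-0.14); over the same 3 genes, a choice made after seeing the data, it ran from -0.33 to -0.25 with 1 array left out. The difference of the medians, over the genes each setting tested, ran from -0.79 to -0.54. The cause of these changes was not tested beyond this.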
